A study of Bubalus bubalis with 8 samples.

Results

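Immediate early and stress transcription genes were followed in buffalo (Bubalus bubalis) mammary epithelial cells (MECs) after heat stress. The group held FOS, FOSB, JUN, JUNB, EGR1, ATF3, IER2, IER3, DUSP1 and KLF6, taken as all probes that carried 1 of these gene names on a bovine 1-colour array, which gave 24 of 43653 probes and 10 of 24839 gene names. Primary MECs of female buffalo tissue, grown from 1 animal and passaged 10 times, were kept at 37 °C (CTR) or held for 1 h at 42 °C and returned to 37 °C. Heat stressed cells were harvested by trypsinization after 30 min or after 2, 4, 8, 12, 16 or 24 h of recovery. The paper states that control plates were trypsinized as well, at corresponding times. The labels name no genetic change. Each of the 8 conditions had 1 array, so no test was possible and no p-value is given.

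Immediate early genes are transcribed within minutes of a stimulus, without need of newly made protein, and their mRNAs are short-lived. FOS, FOSB, JUN and JUNB encode leucine zipper proteins that pair into the AP-1 transcription factor, EGR1 and KLF6 encode zinc finger factors, and ATF3 encodes a stress-induced member of the ATF/CREB family. DUSP1 encodes a phosphatase that turns off MAP kinases, and IER2 and IER3 are small immediate early response genes. In epithelial cells this group is known to respond to growth factors, heat, dissociation and other stress.

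The level of a probe is given here as the log2 intensity above the 75th percentile of its array, and a change is the difference in level between 2 arrays. For 30 min the log2 values deposited by the authors were used, placed on the same scale. A change of 3-fold (1.58 on the log2 scale) counted as passed. From repeated spots of the same probe, the error of a change lay between 0.30 (8 h) and 0.37 (24 h), and was 0.52 for the 16 h array. The deposited 30 min values hold no repeated spots, so the spot SD of CTR stood in for that array (error 0.30), whereas the SD between its own scanner spots was 1.83. The error covers spots within an array and not the spread between cultures. Levels of different probes were not set against each other.

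Probes of 1 gene differed in this group. The sequences shown are those of FOSB and JUN, whose probes went apart, and of the bright probes of ATF3, EGR1, IER2 and JUNB, which passed 3-fold. Capitals mark AATAAA, the hexamer that precedes the cleavage and poly(A) addition site of most mRNAs. The first 9 lines give the last 30 bases of 60-base probes, namely those nearest the 3′ end of each gene and the middle probes of FOSB, JUN and EGR1. The final 2 lines give the whole 5′-most probes of FOSB and JUN.
FOSB A_73_101823: tgcactgtcgccAATAAAaaactcttaaaa
FOSB A_73_P356791: ctttgacccccaccaccccctaatattttt
JUN A_73_P317791: gcactctgagtttaccatttgtAATAAAgt
JUN A_73_120007: aaatataaataacacagacagatttgagaa
IER2 A_73_114011: agaatcgccagataggaaAATAAAgaccaa
JUNB A_73_120294: tgtttatgtgttagttcgtttattgtcctt
ATF3 A_73_100833: gtttctgtgaaatcctcagagtgtttagtc
EGR1 A_73_111154: attgaatgcgctttattgcccatgggatat
EGR1 A_73_P038551: agaaaatcaagttggcaaaaatggggtttg
FOSB A_73_P274581: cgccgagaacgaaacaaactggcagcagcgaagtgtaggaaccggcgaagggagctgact
JUN A_73_P101006: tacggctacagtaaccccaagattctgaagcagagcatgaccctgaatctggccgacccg

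In the bovine build Btau_3.1 that the array design names, the 3 FOSB probes lay on the plus strand at chr18:52863095-52863154 (A_73_101823), chr18:52862186-52862245 (A_73_P356791) and chr18:52859536-52859595 (A_73_P274581). The 3 JUN probes lay on the plus strand at chr3:93620750-93620809 (A_73_P317791), chr3:93620133-93620192 (A_73_120007) and chr3:93619194-93619253 (A_73_P101006). IER2 A_73_114011 lay on the minus strand at chr7:10697404-10697463, JUNB A_73_120294 on the minus strand at chr7:11005084-11005143 and ATF3 A_73_100833 on the minus strand at chr16:68874240-68874299. The bright EGR1 probes lay on the plus strand at chr7:49146005-49146064 (A_73_111154) and chr7:49145195-49145254 (A_73_P038551). The AATAAA hexamer, searched on the strand of the probe, occurred in 3 of 24 member probes (12.5%), beside 9.35% of all probes. Both KLF6 probes nearest the 3′ end shared a run of 41 bases and are not independent measurements, and the longest run shared by any other pair within a gene was 9 bases, in IER3. How far these bovine sequences differ from the buffalo transcripts was not tested.

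Detection followed the position of the probe in these genes. In the 8 members with more than 1 probe, the probe nearest the 3′ end was well above background on all 8 arrays. The 5′-most probe was detected on 0 arrays for EGR1 and IER2, on 1 array for FOSB, DUSP1 and KLF6, on 4 for FOS, on 7 for JUN and on 8 for IER3. Thus the 5′-most probe was seen on all arrays in 1 of 8 members (12.5%), beside 29.0% of the 2326 genes with more than 1 probe at a locus and a 3′-most probe seen on all arrays.

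**Figure D1:**
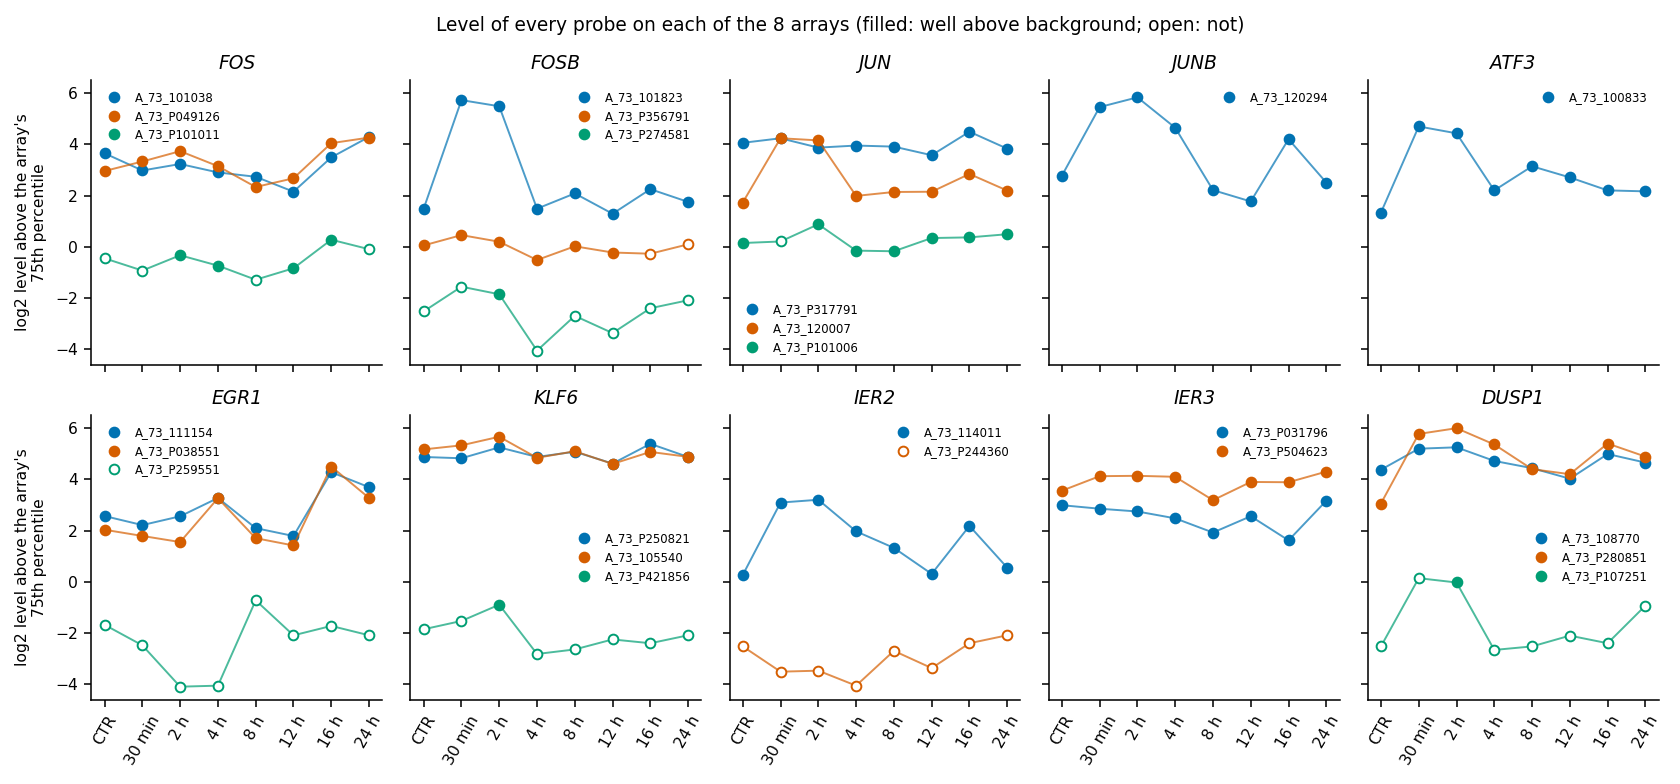
Level of every member probe (log2 intensity above the 75th percentile of the array, y axis) on the 8 arrays (x axis), 1 panel per gene, with colours from the 3′-most probe (blue) to the 5′-most (green). Filled points were well above background and open points were not; FOSB A_73_101823, JUN A_73_120007, JUNB, ATF3 and IER2 A_73_114011 stood highest at 30 min and 2 h, whereas EGR1 stood highest at 16 h.

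Probes well above background made up 20.9% (30 min, scanner file) to 40.2% (2 h) of each array. CTR, 8 h, 12 h and 24 h were hybridised on 1 slide and 30 min, 2 h, 4 h and 16 h on the other, so slide and heat cannot be told apart in a comparison of the second slide with CTR. The CTR array was dark at rows 216 to 330 and columns 30 to 59, and 1 member probe, DUSP1 A_73_P280851, lay there and gave no change from CTR. The 30 min scanner intensities departed from the deposited values of that array. In the first array rows, up to row 200, the 7 member probes that the scanner flagged as well above background differed from the deposited values by 2.84 to 2.89, a nearly constant shift that held for JUNB and JUN A_73_120007. Across bright probes of all genes, Pearson's r between both was 0.97 there, 0.25 in the middle rows and 0.00 in the last rows, where FOSB A_73_101823 lay, so its 30 min value could not be checked against the scanner file. The same held for ATF3 and IER2, in the middle rows. In the last rows it held too for DUSP1 A_73_108770, JUN A_73_P317791, KLF6 A_73_P250821 and both bright EGR1 probes.

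With 1 probe per gene, all 10 members were measured at every time point, none of them was 3-fold lower than CTR at any, and 0 to 4 were 3-fold higher. The share of all genes 3-fold lower was 4.59% at 30 min, 9.49% at 2 h and 6.27% at 4 h, then 0.16% (8 h), 0.546% (12 h), 4.49% (16 h) and 0.55% (24 h). FOSB, JUNB, ATF3 and IER2 passed 3-fold at both 30 min and 2 h, with 4 of 10 members each time. Over all genes, 8.33% of 7741 were 3-fold higher at 30 min and 6.83% of 8844 at 2 h. The median change of the members was 0.69 at 30 min and 0.82 at 2 h, whereas the median of all genes measured was -0.18 and -0.35. The remaining 6 members lay between -0.35 and 0.87 at both times. KLF6, IER3, FOS, EGR1 and DUSP1 did not pass at these times by any probe used.

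**Figure D2:**
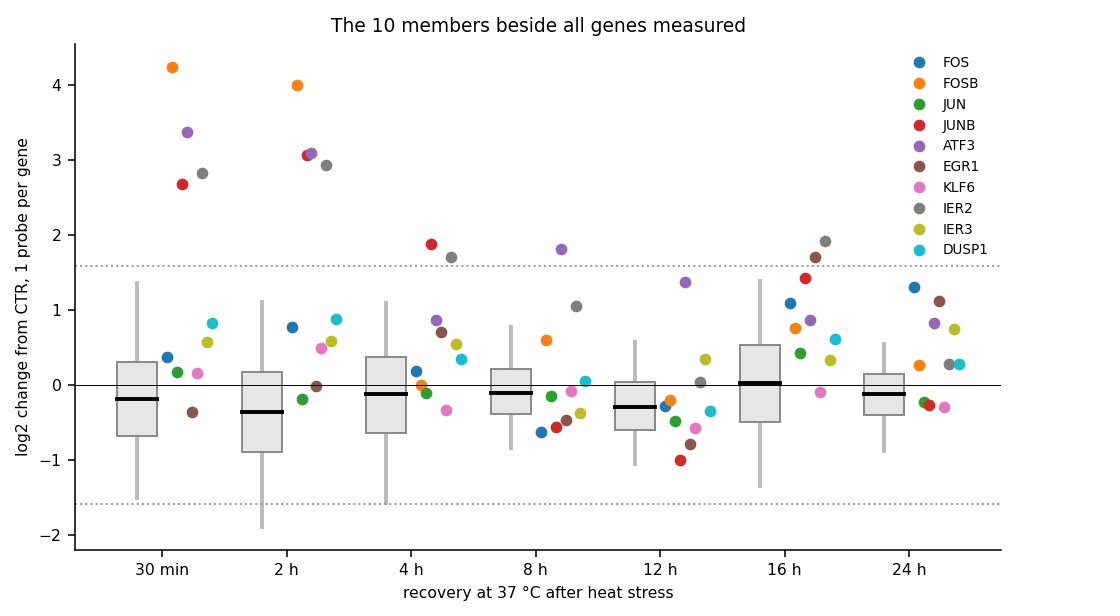
Log2 change from CTR (y axis) of each member by 1 probe per gene (coloured points) at 7 recovery times (x axis), beside all genes measured at that time, shown as the median (black line), the 25th to 75th percentile (box) and the 5th to 95th percentile (grey line). Dotted lines mark 3-fold; FOSB, ATF3, JUNB and IER2 lie above the upper line and above the 95th percentile at 30 min and 2 h, and most members are near the other genes at 8 h and 12 h.

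Among the AP-1 genes, FOSB showed the widest range over the 8 arrays, 4.43. The level of FOSB A_73_101823 was 1.49 in CTR, 5.73 after 30 min, 5.49 after 2 h, 1.49 after 4 h, then 2.09 (8 h), 1.29 (12 h), 2.25 (16 h) and 1.75 (24 h). The 30 min and 2 h arrays stood apart from all others and differed from each other by less than the error of a change, and 4 h was back at the CTR level. The changes from CTR were 4.23 (18.8-fold) at 30 min and 4.00 (15.9-fold) at 2 h. The second FOSB probe, A_73_P356791, did not share this, with changes from CTR of 0.40 (30 min), 0.14 (2 h) and -0.57 (4 h), at a level between -0.51 and 0.46 where it was well above background. With the mean over all FOSB probes the change was 1.87 at 30 min and 1.60 at 2 h.

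JUNB, measured by 1 probe, was 3-fold higher than CTR at 4 h too, where FOSB was back at the CTR level. Its level was 2.78 in CTR, 5.45 after 30 min, 5.83 after 2 h, 4.65 after 4 h, then 2.22 (8 h), 1.77 (12 h), 4.20 (16 h) and 2.51 (24 h). The change from CTR was 2.68 (6.40-fold) at 30 min, then 3.06 (8.33-fold) in the 2 h array and 1.87 (3.66-fold) in the 4 h array. All 4 arrays of the second slide lay above all 4 arrays of the first for this gene, and the change of 1.43 at 16 h did not pass 3-fold. Against 16 h, on the same slide, JUNB at 4 h differed by 0.45, within the error of 0.55 for these 2 arrays.

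The JUN probes went apart. The level of A_73_120007 was 1.73 in CTR, 4.24 after 30 min, 4.16 after 2 h, 1.99 after 4 h, then 2.14 (8 h), 2.15 (12 h), 2.85 (16 h) and 2.20 (24 h). The 30 min and 2 h arrays were thus higher than CTR by 2.51 (5.69-fold) and 2.42 (5.36-fold), and no other time point passed. The probe nearest the 3′ end, A_73_P317791, had levels of 4.06 in CTR, 4.24 after 30 min, 3.87 after 2 h, 3.95 after 4 h, then 3.91 (8 h), 3.58 (12 h), 4.49 (16 h) and 3.83 (24 h). Its changes lay between -0.48 and 0.43, and those of the 5′ probe A_73_P101006 between -0.32 and 0.73. A_73_P317791 was the probe that stood for JUN in the counts, so that JUN was not among the 4 members above. Counting every probe, 5 of 16 member probes measured were 3-fold higher at 30 min (background 8.31%) and 5 of 19 at 2 h (background 6.7%).

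FOS, the founding gene of the FOS family of AP-1 subunits, was not 3-fold higher at any time by either bright probe. FOS A_73_P049126 had levels of 2.96 in CTR, 3.33 after 30 min, 3.73 after 2 h, 3.15 after 4 h, then 2.34 (8 h), 2.68 (12 h), 4.05 (16 h) and 4.26 (24 h). Its highest arrays were 16 h and 24 h, with changes of 1.09 and 1.30. FOS A_73_101038, nearer the 3′ end, had changes of -0.67 at 30 min and -0.42 at 2 h, was lowest at 12 h (-1.50) and highest at 24 h (0.64). Both bright probes had their highest level at 24 h. The 5′ probe A_73_P101011 gave only bounds, at least 1.09-fold higher (2 h) and at least 1.65-fold higher (16 h).

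ATF3 was the only member above CTR by more than the error at every time point, with 1 probe per gene. Its last 3-fold pass was at 8 h, whereas IER2 and EGR1 passed at 16 h. Its level, by a single probe, was 1.34 in CTR, 4.70 after 30 min, 4.43 after 2 h, 2.21 after 4 h, then 3.15 (8 h), 2.71 (12 h), 2.21 (16 h) and 2.17 (24 h). CTR was the lowest of the 8 arrays. The change was 3.36 (10.3-fold) at 30 min and 3.10 (8.55-fold) at 2 h, and 1.81 (3.50-fold) at 8 h. At 8 h ATF3 was the only member to pass, 1 of 10 beside a background of 0.59%, and with normexp background correction its change there was 1.57, just under 3-fold. Because CTR was low for this gene, the change against the median of 8 h, 12 h and 24 h was 1.99 at 30 min and 1.72 at 2 h. The ATF3 probe lay at row 317 and column 63, near the dark region of CTR but outside it. Bright probes within 10 spots had a median of -0.11 there on CTR. Whether CTR was dimmed at this spot itself was not tested.

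**Figure D3:**
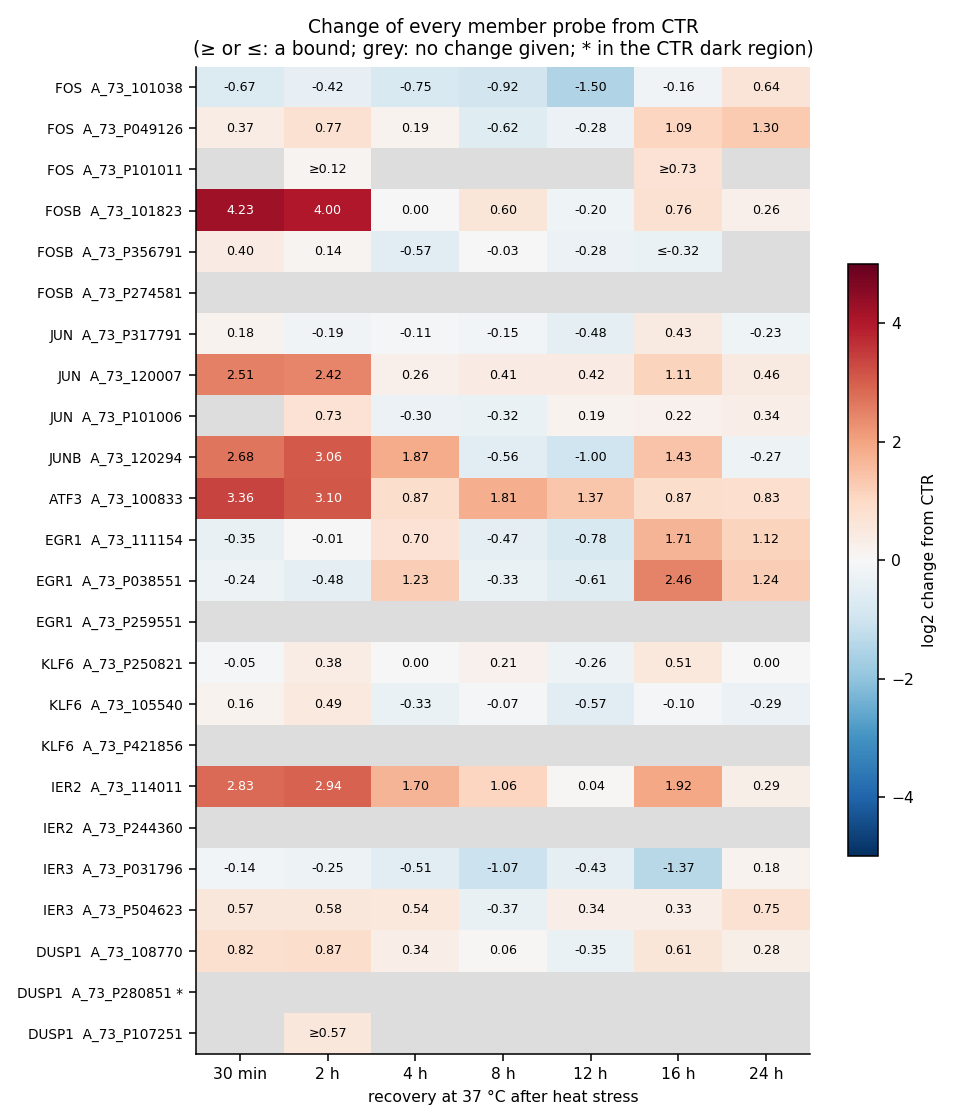
Log2 change from CTR (colour and printed value) of the 24 member probes (rows, by gene and from 3′ to 5′) at 7 recovery times (columns). Grey cells had no change to give, ≥ and ≤ mark bounds, and the star marks the DUSP1 probe in the dark region of CTR; FOSB and JUN passed 3-fold at 30 min and 2 h in 1 probe each, and EGR1 passed at 16 h in both bright probes.

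The zinc finger gene EGR1 was not highest on the early arrays. EGR1 A_73_111154 had levels of 2.57 in CTR, 2.22 after 30 min, 2.56 after 2 h, 3.27 after 4 h, then 2.10 (8 h), 1.79 (12 h), 4.28 (16 h) and 3.69 (24 h). EGR1 A_73_P038551, from another place in the gene, had levels of 2.04, 1.79, 1.56, 3.27, 1.71, 1.42, 4.50 and 3.27 on the same arrays in the same order. In both probes 16 h was highest and 12 h lowest, and 30 min and 2 h were not above CTR beyond the error. The change at 16 h was 1.71 (3.27-fold) and 2.46 (5.52-fold), so EGR1 was the only member that passed by more than 1 probe. At 24 h, on the slide of CTR, the changes were 1.12 and 1.24. At 4 h, on the slide of 16 h, they were 0.70 and 1.23. Both probes were below CTR at 8 h (-0.47 and -0.33) and 12 h (-0.78 and -0.61).

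Together with IER2, this made 2 of 10 members 3-fold higher at 16 h, where 6.33% of all genes were, and the median was 0.81 for the members and 0.03 for all genes. Apart from the 30 min scanner file, the 16 h array had the widest spread between spots (SD 0.47), and neither gene passed there with normexp background correction, which gave 1.48 for EGR1 and 1.40 for IER2. Quantile normalization gave 1.49 for EGR1, also under 3-fold. KLF6 was among the most even members. KLF6 A_73_105540 lay between 4.60 (12 h) and 5.66 (2 h), and its overlapping probe A_73_P250821 between 4.62 and 5.39, and no change passed.

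IER2, like JUNB, was higher on the second slide. The level of IER2 A_73_114011 was 0.27 in CTR, 3.10 after 30 min, 3.20 after 2 h, 1.97 after 4 h, then 1.33 (8 h), 0.31 (12 h), 2.18 (16 h) and 0.55 (24 h). All 4 arrays of the second slide were above the 4 of the first. The change passed 3-fold on the whole second slide, with 2.83 (7.09-fold) after 30 min, 2.94 (7.65-fold) after 2 h, 1.70 (3.26-fold) after 4 h and 1.92 (3.77-fold) after 16 h. JUNB and IER2 were the 2 of 10 members past 3-fold at 4 h, beside 3.47% of all genes, with a median change of 0.44 for the members and -0.12 for all genes. Against the 16 h array, the 4 h change of IER2 was -0.21. The other IER2 probe, farther 5′, was not well above background on any array.

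IER3 did not pass 3-fold by either probe. IER3 A_73_P504623 ranged from 3.19 (8 h) to 4.30 (24 h). IER3 A_73_P031796 ranged from 1.62 (16 h) to 3.17 (24 h), with its largest change, -1.37, at 16 h. The probes gave opposite signs at 5 of the 7 times, all but 8 h and 24 h. All these changes share CTR, which was uneven between both places. Bright probes within 10 spots had a median on CTR of -0.44 around A_73_P504623 and 0.45 around A_73_P031796. The part of this unevenness in the opposite signs was not tested.

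DUSP1 was measured outside the dark region by A_73_108770. Its level was 4.38 in CTR, 5.20 after 30 min, 5.25 after 2 h, 4.72 after 4 h, then 4.44 (8 h), 4.03 (12 h), 4.99 (16 h) and 4.65 (24 h). The 30 min and 2 h arrays were highest, with changes of 0.82 and 0.87 that exceeded the error but not 3-fold. The probe in the dark region, A_73_P280851, was higher on all other arrays than in CTR, by a level of 3.06 in CTR against 4.20 to 6.00 elsewhere, and no change is drawn from it. Among the 7 heat stressed arrays it was highest at 2 h and lowest at 12 h, as was A_73_108770. If it were used for DUSP1, the members past 3-fold would be 5 rather than 4 at 30 min and at 2 h. They would be 3 rather than 2 at 4 h and at 16 h, and 1 rather than 0 at 24 h.

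At 12 h and 24 h no member passed 3-fold in either direction, where the background higher was 0.182% and 0.127%. The median change of the members was -0.32 at 12 h, beside -0.29 for all genes, and 0.28 at 24 h, beside -0.12. At 8 h these medians were -0.11 and -0.10.

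Within the second slide, the early arrays were set against 16 h, itself a heat stressed array. FOSB and ATF3 were 3-fold higher at 30 min, by 3.47 and 2.49, which is 2 of 10 members beside 6.58% of all genes. At 2 h FOSB, ATF3 and JUNB were higher, by 3.23, 2.23 and 1.63, which is 3 of 10 beside 5.3%. EGR1 was lower in both comparisons, by -2.06 at 30 min (1 of 10 members, background 4.11%) and -1.72 at 2 h (1 of 10, background 7.68%), and by -2.71 and -2.94 in its other probe. IER2 was not 3-fold higher, with 0.91 and 1.02. At 4 h no member passed in either direction, where 1.52% of all genes were higher and 4.83% lower.

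Markers of other cell types were also different on the early arrays. Of the labelled cell type, 7 of 8 epithelial markers (KRT8, KRT19, KRT5, KRT14, KRT17, CDH1 and EPCAM) were well above background on all 8 arrays, and the KRT18 probe was on 2 only, not in CTR. The summed linear level of the 8 epithelial markers, in multiples of the array's 75th percentile, was 746 in CTR, 238 after 30 min, 243 after 2 h, 360 after 4 h and 512 to 603 later. Bright keratins set this sum. KRT8 was lower by -3.70 at 30 min and -2.62 at 2 h, whereas CDH1 had changes of -0.41 and 0.11 and EPCAM of -1.02 and -0.12, and KRT18 was at least 2.99-fold higher at 2 h. That of 5 leukocyte markers was 5.08 in CTR, 90.9 after 30 min, 60.3 after 2 h, 11.8 after 4 h, then 3.83 (8 h), 4.15 (12 h), 15.6 (16 h) and 5.67 (24 h). CD14, CD68, CD3E and CD74, defining markers of monocytes, macrophages, T cells and antigen-presenting cells, were not well above background in CTR and were higher by at least 35.0, 44.1, 6.57 and 27.7-fold at 30 min and by at least 25.9, 25.4, 3.61 and 17.0-fold at 2 h. PTPRC (CD45), a marker of all leukocytes, was detected on all 8 arrays and stood otherwise. It was higher on the 4 arrays of the second slide, with levels of 3.15 (30 min), 3.10 (2 h), 3.40 (4 h) and 3.37 (16 h), than on the first, where it lay between 1.32 and 1.84. Its changes were 1.43 and 1.38 on the early arrays, and passed 3-fold at 4 h (1.68) and 16 h (1.65).

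The 30 min and 2 h arrays were highest for FOSB, JUN A_73_120007, ATF3, IER2 and JUNB, for CD14, CD68, CD3E and CD74 and for the leukocyte sum, and lowest for the epithelial sum. The part of these markers in the members' changes was not tested, nor was it tested whether the early samples held the same cells as CTR. For fibroblasts, VIM was detected on all 8 arrays and the summed level of 6 markers was 186 in CTR and between 52.6 and 170 on the other arrays, most of it VIM. COL1A1, COL3A1 and DCN were 3-fold lower at 2 h, by -2.69, -2.25 and -2.11, and COL1A2 was at least 11.5-fold higher at 16 h. At 4 h COL1A1, COL3A1 and VIM were 3-fold lower, VIM with a level of 5.64 against 7.47 in CTR. Of 3 endothelial markers none was detected in CTR, and VWF alone was detected at 30 min and 2 h, by at least 5.54-fold and 3.05-fold. Fewer cells of a type and less RNA per cell cannot be told apart in these samples.

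**Figure D4:**
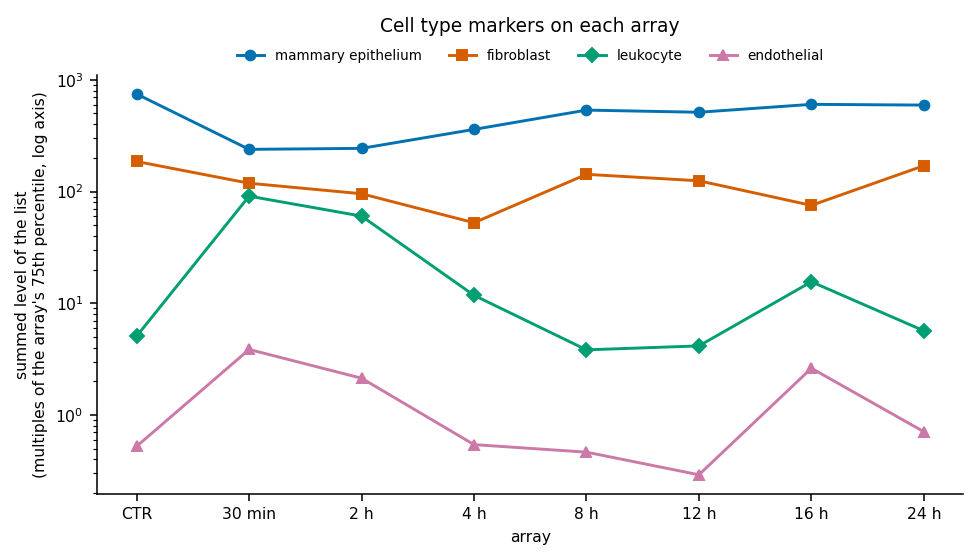
Summed linear level of each marker list (y axis, log scale, multiples of the array's 75th percentile, probes not above background entered at their value) on the 8 arrays (x axis). The leukocyte sum was 90.9 at 30 min and 60.3 at 2 h against 5.08 in CTR, while the epithelial sum was 238 and 243 against 746.

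Other genes of these pathways were taken from lists of AP-1 partners, other immediate early factors, feedback genes, partners of ATF3 in the stress response, upstream kinases and known responders. Beside their counts stand the shares of all genes, which were 8.33% higher and 4.59% lower at 30 min and 6.83% higher and 9.49% lower at 2 h, and no difference between lists was tested. Of 12 AP-1 partners, 5 had a value at 30 min and 2 were 3-fold higher, and 6 had a value at 2 h, with 2 higher and 1 lower. MAFF, a small MAF protein, was higher by 2.23 and 1.67. BATF3, which pairs with JUN proteins, was higher by at least 8.30-fold and at least 10.3-fold, and BATF2 was lower by at least 5.43-fold at 2 h and by 3-fold or more at 4 h too (-1.90). FOSL2, the FOS-related gene FRA2, passed at 8 h (1.80) and JUND at 16 h (1.66), which were the only partners to pass at these times.

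The orphan nuclear receptor gene NR4A1 showed the largest of these changes, 5.02 (32.4-fold) at 30 min and 4.30 (19.7-fold) at 2 h, from levels of 0.47 in CTR to 5.49 and 4.77. It was the only one of 6 other immediate early factors with a value to pass at 30 min, and KLF2 joined it at 2 h with at least 4.69-fold. No gene of this list passed from 4 h on.

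Feedback genes limit MAP kinase signalling or the life of the induced mRNAs. At 30 min 4 of 8 with a value were 3-fold higher and none lower, and at 2 h 5 were higher and 1 lower of 8, beside 6.83% and 9.49% of all genes. ZFP36, which encodes an mRNA decay factor, was higher by 2.86 and 2.45, the antiproliferative gene BTG2 by 2.25 and 2.41, and the ERK phosphatase gene DUSP6 by 2.05 and 2.14. DUSP2 was higher by at least 4.33-fold and at least 6.97-fold. The other 2 genes that passed at 2 h were IER5 (1.59) and SPRY2 (-1.97), an inhibitor of receptor tyrosine kinase signalling, both named after their values were seen. BTG2 also passed at 4 h (1.79) and 16 h (2.13), and DUSP6 was lower at 24 h by at least 3.97-fold. The median of those measured was 2.05 at 30 min and 1.86 at 2 h.

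Of the partners of ATF3 in the stress response, 1 of 6 with a value was higher at 30 min and at 2 h. This was DDIT3, encoding CHOP, at least 3.94-fold and 3.21-fold higher. ATF4, which encodes a translation-controlled activator of stress genes, was lower at 24 h (-1.78). Of 15 upstream kinases and factors, none of 9 with a value passed at 30 min and 1 of 11 at 2 h, near the 9.49% of all genes that were lower. This was the kinase gene MAP2K7, lower by at least 9.59-fold. It was lower also at 4 h, by at least 6.97-fold, and at 12 h (-1.69).

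Known responders to AP-1 or EGR1 went both ways. At 30 min 3 of 7 with a value were higher and 2 lower, and at 2 h 3 of 8 higher and 2 lower, beside 8.33% and 4.59%, then 6.83% and 9.49%, of all genes. PTGS2, the inducible cyclooxygenase, was higher by at least 15.7-fold and at least 5.51-fold, the urokinase receptor gene PLAUR by 1.78 at 30 min, and HMOX1, heme oxygenase, by 1.65 at 2 h. The fifth gene to pass was HMOX1 (1.73) at 30 min and PLAUR (1.59) at 2 h, both given after their values were seen. The matricellular genes CTGF and CYR61 were lower, by -2.63 and -2.22 at 30 min and by -2.49 and -2.86 at 2 h. CTGF, CYR61 and PLAUR were lower at 16 h, by -1.60, -2.04 and -1.67, where HMOX1 was higher by 2.91.

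The genes whose pattern was most like that of FOSB A_73_101823 were ranked by Pearson's r over the 8 arrays, among 5267 genes well above background on all arrays. N4BP1, SGK1, IL10RB, GRO1 and IRF5 came first, with r from 0.98 to 0.99. GRO1 had the widest range of the 5, with a level of 1.47 in CTR, 6.28 at 30 min and 6.22 at 2 h, and the SGK1 level went from 1.21 to 5.12 and 4.73. Among the members JUN A_73_120007 had r = 0.97 (rank 14), ATF3 0.91 (rank 103), IER2 0.85 (rank 196), KLF6 0.82 (rank 232), DUSP1 0.82 (rank 240) and JUNB 0.79 (rank 273), whereas IER3 had 0.34, FOS 0.25 and EGR1 -0.22. These values describe 8 arrays, of which 30 min and 2 h stood apart from the rest. JUN was ranked here by A_73_120007 and not by A_73_P317791, the probe that stood for it in the counts. No r is given for A_73_P317791, whose level lay between 3.58 (12 h) and 4.49 (16 h). KLF6 was ranked by A_73_105540. No r is given for its overlapping probe A_73_P250821, which stood at 4.87 in CTR and 4.82 at 30 min and was highest at 16 h (5.39).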

How the data were processed

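RNA of 8 MEC samples, 1 per condition, was labelled with Cy3 and hybridised by the authors to bovine 4x44K arrays with 60-base probes. The authors deposited an intensity per spot from Feature Extraction 9.5.3.1, with background and spatial trends removed and no scaling between arrays, and log2 values that GeneSpring GX had scaled by the 75th percentile and centred per probe.

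Here the processed intensity was taken to log2 and reduced by the 75th percentile of all probes on that array. Repeated spots gave a mean, without outlier-marked ones. The 30 min array was taken from the deposited log2 values, put on the same scale, and a probe counted as detected there above the highest limit found on another array. A probe not well above background on 1 array gave a bound, and on both arrays no change. One probe stood for a gene, that detected on most arrays and then the brightest. Probes were left out where CTR was dark, that is at rows 216 to 330 and columns 30 to 59, or where bright probes within 10 spots had a median of -1 or lower (7.73% of probes in all). No test was made, since each group held 1 array. The number of arrays sets the limit of precision. The 3-fold threshold is that of the study.

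Named genes were all 10 members, at each time point up to 4 genes of each list with the largest change among those past 3-fold (genes outside this are marked in the text), and the 5 genes most like the member of widest range. The members and lists were chosen with earlier results of these data known. Alternatives were normexp (offset 50), quantile normalization, scaling to the median, the percentile over bright probes, 2-fold, other filters on dim probes, all probes of a gene averaged, the dark region kept, the deposited log2 values, the 30 min scanner intensities and 16 h as reference. Added after the data were seen were the median of 8 h, 12 h and 24 h as reference, a gene counted by any probe, and CTR corrected by its local median. Calls and bounds were tested on simulated data. Python 3.11.15, numpy 2.4.6, pandas 2.3.3, R 4.3.3 and limma 3.58.1 were used.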

Additional observations from a re-analysis of the deposited data

How the results depend on the processing

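No paired analysis was possible because each condition had 1 array with replicate number 1. No member was lower than CTR under any alternative at 3-fold, apart from the 30 min scanner intensities, where 3 were. The quantile and deposited log2 alternatives moved no median. The filters on dim probes could not move one, since the probe that stood for each member was well above background on all 8 arrays. Their values are nonetheless among those counted below as stayed. With the 30 min scanner intensities the changes of FOSB, ATF3 and IER2 turned to -0.40, -1.14 and -0.070. The members' median was then 3.29, beside a median of 2.48 for all genes. Against 16 h, IER2 at 4 h turned to -0.21. Scaling to the array median moved the median of all genes by 0.95 (30 min), 0.70 (2 h), 1.09 (4 h) and -0.43 (24 h). The members' median was then 1.65, 1.53, 1.53 and -0.15 at these times, 5 members passed at 4 h and 1 passed at 12 h. With normexp the median was 1.43 (2 h), 1.06 (4 h) and 0.098 (12 h), and 0 members passed at 8 h and at 16 h. With the dark region kept the median was 1.62 at 30 min and 1.85 at 2 h, and 1 member passed at 24 h. With probes averaged, 1 passed at 4 h and 0 at 16 h, and the 4 h median was -0.017. At 16 h 1 passed after quantile normalization and 1 with the percentile over bright probes. With the late arrays as reference, 1 passed at 4 h, and with CTR corrected locally the 8 h median was 0.25. At 2-fold, 2 (8 h), 1 (12 h), 4 (16 h) and 2 (24 h) were higher, and 1 was lower in the 12 h array. In these settings the cause was not tested. All other counts and medians of the members (225) stayed within 1.5 times or the error. The changes of single members were less stable, as 609 stayed, 167 moved and 4 reversed sign. Scaling to the array median moved 40 of these changes and left 30, and averaging the probes of a gene moved 35 and left 35. With 16 h as reference 24 moved, 1 reversed and 5 stayed. With the 30 min scanner intensities 7 moved and 3 reversed.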
